A study of Mus musculus with 56 samples.

Results

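The 7 genes described here encode the aryl hydrocarbon receptor and proteins tied to it, out of the 20314 genes of a mouse RNA-sequencing table. They were picked because Ahr was higher with Wnt3a in β-catenin fl/fl cells of this same table, and the question was whether genes regulated by the receptor, and the other cell lines, changed in the same way. Ahr (Entrez 11622, chr12:35497979-35534989) encodes the receptor itself, and Arnt (11863, chr3:95434367-95497240) encodes the partner with which it binds DNA. Ahrr (11624, chr13:74211118-74292331) encodes the repressor that competes for this partner. The other 4 are genes that the receptor is known to activate. Cyp1a1 (13076, chr9:57687928-57703824) and Cyp1b1 (13078, chr17:79706940-79715061) encode cytochrome P450 enzymes that oxidize aromatic compounds, Tiparp (99929, chr3:65528447-65555518) encodes an ADP-ribosyltransferase that limits the receptor, and Nqo1 (18104, chr8:107388225-107403205) encodes a quinone reductase. All positions are on mouse build GRCm38 from RefSeq.

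RNA was measured in 56 samples of 7 genotypes, each taken here as 1 cell line. All were isolated from mammary tumors of FVB/N mice with the MMTV-PyMT transgene, which drives tumors with the polyoma middle T antigen. The lines differ in their β-catenin alleles. The fl/fl line carries floxed alleles that act as wild type, and D164A/fl, ΔC/fl and dm/fl lines pair a mutant allele with a floxed one. In the D164A/-, ΔC/- and dm/- lines the floxed allele had been removed with an adenovirus carrying Cre and GFP, followed by sorting for GFP. The D164A change abolishes the binding of Bcl9 and Bcl9L, and the labels do not explain ΔC and dm. Each line was studied in 2 experiments with their own untreated cells, 1 with Wnt3a at 100 ng/ml over 3 days and 1 with TGFβ at 2 ng/ml over 4 days. Every one of the 28 conditions had 2 samples.

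The lines are a cell culture model on plastic that all share the viral oncogene, serum and 1 mouse strain. Since the labels name no second line per genotype, the genotype and the cell line cannot be told apart. The paper describes more than 1 independent fl/fl line in its reporter assay and states that its lines were then sequenced. Whether the fl/fl duplicates came from the same line is therefore not known. The design speaks of biological duplicates, but the labels do not say that they were separate cultures, so p-values here measure the spread between these samples only. Samples were bulk RNA, in which fewer cells of a type and less RNA per cell look alike. The study asked how the contacts between β-catenin, Bcl9 proteins and Pygopus shape breast tumor growth and the transcription that Wnt3a and TGFβ set off.

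The receptor is a transcription factor that rests in the cytoplasm with heat shock protein partners until a ligand, such as dioxin, a polycyclic hydrocarbon or a product of tryptophan, binds it. It then enters the nucleus, pairs with ARNT and binds elements with the core GCGTG near genes such as Cyp1a1, whose RNA is widely used as a readout of its activity. Nqo1 is also activated by NRF2, and Wnt3a acts through β-catenin and TCF/LEF factors, which bind TCAAAG.

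The annotated promoters of the genes around the receptor are shown because the element is the known link between receptor and target. They run from 250 bases before to 50 bases after the transcription start in RefSeq on GRCm38.p6, written on the strand of the gene with the core in capitals, on either strand (GCGTG or CACGC). Promoters for 6 of the 7 genes were in the reference. Ahrr lies at chr13:74292282-74292581 on the minus strand and Arnt at chr3:95434140-95434439 on the plus strand. Cyp1a1 lies at chr9:57697363-57697662 on the plus strand and Cyp1b1 at chr17:79715012-79715311 on the minus strand. Tiparp lies at chr3:65528197-65528496 on the plus strand and Nqo1 at chr8:107403156-107403455 on the minus strand.
Arnt: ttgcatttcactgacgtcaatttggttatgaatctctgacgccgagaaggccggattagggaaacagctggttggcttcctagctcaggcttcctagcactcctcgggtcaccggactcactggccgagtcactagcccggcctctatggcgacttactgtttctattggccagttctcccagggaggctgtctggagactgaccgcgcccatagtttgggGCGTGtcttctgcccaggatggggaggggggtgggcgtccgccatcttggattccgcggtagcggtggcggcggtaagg
Ahrr: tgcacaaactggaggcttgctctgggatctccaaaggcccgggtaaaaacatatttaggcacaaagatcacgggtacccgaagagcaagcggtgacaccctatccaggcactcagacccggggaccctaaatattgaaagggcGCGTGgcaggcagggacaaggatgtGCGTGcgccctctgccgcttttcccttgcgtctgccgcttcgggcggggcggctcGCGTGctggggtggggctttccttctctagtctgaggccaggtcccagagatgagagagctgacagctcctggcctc
Cyp1a1: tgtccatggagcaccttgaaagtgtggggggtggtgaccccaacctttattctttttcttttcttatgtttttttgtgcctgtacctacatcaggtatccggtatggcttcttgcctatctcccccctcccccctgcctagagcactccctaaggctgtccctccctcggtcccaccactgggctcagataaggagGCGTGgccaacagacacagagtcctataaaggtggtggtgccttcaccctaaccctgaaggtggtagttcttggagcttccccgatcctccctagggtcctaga
Cyp1b1: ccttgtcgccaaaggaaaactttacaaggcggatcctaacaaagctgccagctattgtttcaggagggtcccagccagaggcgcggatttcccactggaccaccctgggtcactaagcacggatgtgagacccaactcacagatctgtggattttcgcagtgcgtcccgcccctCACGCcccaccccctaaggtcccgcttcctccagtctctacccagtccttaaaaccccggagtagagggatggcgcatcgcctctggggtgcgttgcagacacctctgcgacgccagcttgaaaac
Tiparp: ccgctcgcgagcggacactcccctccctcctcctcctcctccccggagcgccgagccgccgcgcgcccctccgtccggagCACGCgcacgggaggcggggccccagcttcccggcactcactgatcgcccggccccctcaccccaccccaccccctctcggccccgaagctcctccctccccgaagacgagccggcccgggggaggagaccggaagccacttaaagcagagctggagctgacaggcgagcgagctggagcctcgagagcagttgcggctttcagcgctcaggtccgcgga
Nqo1: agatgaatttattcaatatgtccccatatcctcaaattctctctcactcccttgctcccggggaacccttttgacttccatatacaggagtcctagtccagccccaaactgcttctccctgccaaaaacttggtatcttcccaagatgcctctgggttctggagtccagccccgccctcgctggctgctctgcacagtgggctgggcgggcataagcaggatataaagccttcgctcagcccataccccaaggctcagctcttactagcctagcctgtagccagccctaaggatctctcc
The core occurred 3 times in the Ahrr promoter, 1 time each in those of Arnt, Cyp1a1, Cyp1b1 and Tiparp, and 0 times in that of Nqo1. TCAAAG occurred in 0 of the 6. Among 32851 mouse promoters, 32.4% held GCGTG and 16.0% held TCAAAG on either strand, so a match is a description only.

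The samples held 22.4 to 33.7 M reads assigned to genes, with a median of 26.8 M. Values are given as CPM, which is reads per M of an effective library size. In each sample 1 read corresponded to 0.0306 to 0.0486 CPM, and 3 reads, taken as the lowest detected level, to 0.0917 to 0.146 CPM. Such floors cover counting error only. Ahr ranged from 12.2 to 610.4 CPM over the 56 samples with a median of 55.6. Arnt ranged from 47.6 to 123 CPM with a median of 86.5, and Tiparp from 7.07 to 362 CPM with a median of 62.7. Ahrr was close to undetected, with a median of 0.0409 CPM, at most 3 reads in 35 samples and a highest value of 3.23 CPM. Cyp1a1 ranged from 0 to 103 CPM with a median of 1.22. Cyp1b1 ranged from 0.181 to 628 CPM with a median of 87.3, and Nqo1 from 0 to 158 CPM with a median of 16.1 and at most 3 reads in 9 samples.

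In 4 libraries of the Wnt3a experiment, how far a gene lay above or below its mean over all 56 samples strongly followed its GC content. The Spearman rho was at least 0.6 in size over 9381 genes. These libraries were untreated dm/fl replicate 1 (rho 0.80), Wnt3a-treated dm/- replicate 2 (rho 0.71), untreated fl/fl replicate 2 (rho -0.62) and untreated ΔC/fl replicate 2 (rho 0.61). No library of the TGFβ experiment went beyond -0.50 or 0.48. The Wnt3a fold changes of single lines followed GC content in fl/fl cells (rho 0.81), ΔC/- cells (rho 0.84) and dm/fl cells (rho -0.82), and less in dm/- (rho 0.44) and ΔC/fl cells (rho -0.43). In D164A/- cells this rho was 0.18 and for the mean of the 6 mutant lines it was -0.22. Fold changes of the 7 genes that include these libraries are given below with and without them, and values and counts of other genes with them only.

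Ahr was highest in Wnt3a-treated D164A cells and lowest in TGFβ-treated cells. With Wnt3a its mean was 546 ± 90.9 CPM (SD, n = 2) in the D164A/fl line and 268 ± 98.3 CPM in the D164A/- line. Next came dm/fl cells with Wnt3a at 144 ± 25.9 CPM and untreated ΔC/- cells of the TGFβ experiment at 137 ± 1.07 CPM. These 2 conditions overlapped, whereas each of the Wnt3a-treated D164A conditions stood apart from every condition below it. A broad middle followed in which every neighbor overlapped the next. It held untreated dm/fl cells of the TGFβ experiment at 115 ± 19.97 CPM, fl/fl with Wnt3a at 114 ± 12.9 CPM, ΔC/fl with Wnt3a at 107 ± 22.5 CPM and ΔC/- with Wnt3a at 88.3 ± 47.1 CPM. Untreated ΔC/fl cells of the TGFβ experiment had 85.7 ± 41.8 CPM and untreated ΔC/- cells of the Wnt3a experiment 80.5 ± 26.9 CPM. The middle went on downward through 9 further conditions, all of them fl/fl, ΔC or dm.

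These 9 were dm/fl with TGFβ at 60.6 ± 2.24 CPM, untreated dm/- of the TGFβ experiment at 60.6 ± 5.86 CPM, dm/- with Wnt3a at 58.7 ± 24.3 CPM and ΔC/- with TGFβ at 57.8 ± 38.5 CPM. In the Wnt3a experiment, untreated cells of dm/fl had 56.03 ± 18.7 CPM, of fl/fl 50.1 ± 16.0 CPM, of ΔC/fl 47.0 ± 13.4 CPM and of dm/- 46.3 ± 4.76 CPM. Untreated fl/fl cells of the TGFβ experiment closed the group at 42.1 ± 3.90 CPM. All 4 untreated D164A conditions had means below this. They were D164A/- at 32.1 ± 0.845 CPM in the TGFβ and 26.8 ± 1.32 CPM in the Wnt3a experiment, and D164A/fl at 29.0 ± 3.19 CPM in the TGFβ and 31.5 ± 12.3 CPM in the Wnt3a experiment. The 5 lowest conditions were all treated with TGFβ, and each overlapped the next. D164A/- had 22.0 ± 1.23 CPM, ΔC/fl 20.4 ± 4.36 CPM, fl/fl 16.9 ± 4.88 CPM, dm/- 15.7 ± 4.96 CPM and D164A/fl 15.7 ± 1.47 CPM. Of the 27 pairs of neighbors in this order, 22 overlapped in their samples and 5 did not.

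**Figure D1:**
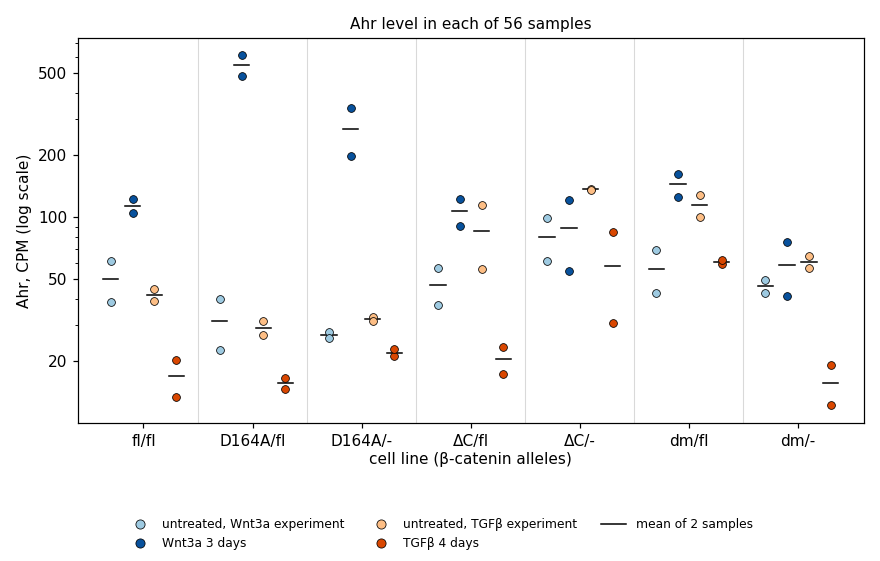
Ahr level (CPM, log scale) in the 7 lines under the 4 treatments, with each sample as a point and the mean of 2 samples as a line. The highest mean was 546 CPM in Wnt3a-treated D164A/fl cells and the lowest was 15.7 CPM in TGFβ-treated D164A/fl cells.

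Over the 28 condition means, the genes most like Ahr among 9512 genes were Tmprss4 (Pearson r 0.829), the Wnt target Axin2 (0.786), Stra6 (0.770), Myzap (0.754) and S100a13 (0.751). Abtb2 was the least like it (-0.730). Of the other 6 genes, Cyp1a1 had an r of 0.585 with Ahr, and 60 genes had a higher one. Tiparp had an r of 0.365, Ahrr 0.259, Arnt 0.134, Nqo1 0.102 and Cyp1b1 -0.018. These correlations describe the order of the conditions and were not tested.

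Whether Wnt3a changed Ahr was asked in each line. In fl/fl cells, Ahr had 38.8 and 61.5 CPM without and 105 and 123 CPM with Wnt3a, a log2 fold change of 1.20 on log2(CPM + 1), the scale used for every fold change here, on which changes of scarce transcripts come out smaller. Since the genes were chosen on this contrast, it is described without a test for all of them, and 0.378% of the 13754 tested genes were called in it. In these cells the log2 fold change was 2.36 for Cyp1a1, with 0.0946 and 2.15 CPM without and 2.70 and 23.4 CPM with Wnt3a. It was -1.05 for Cyp1b1, -1.83 for Tiparp, 0.32 for Nqo1, 0.24 for Ahrr and 0.22 for Arnt. Without the untreated replicate with the strong GC trend these values were 1.53 for Ahr, 3.12 for Cyp1a1, -0.56 for Cyp1b1, -1.27 for Tiparp, 1.07 for Nqo1, 0.35 for Ahrr and 0.14 for Arnt. Over each of the 4 libraries left out, Ahr ran from 0.88 to 1.53, Cyp1a1 from 0.99 to 3.72, Cyp1b1 from -1.83 to -0.27, Tiparp from -3.49 to -0.17 and Nqo1 from -0.44 to 1.07. Tiparp and Cyp1b1 were closest to 0 without treated replicate 1 and furthest from it without treated replicate 2, without which Cyp1a1 was lowest.

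Ahr had the largest responses to Wnt3a in the D164A lines. D164A/fl cells had 40.2 and 22.8 CPM without and 610.4 and 482 CPM with Wnt3a. D164A/- cells went from 27.7 and 25.9 CPM to 198 and 337 CPM. All treated samples of these lines lay far above all untreated ones. Ahr rose in D164A/fl cells with a log2 fold change of 4.12 (SE 0.41, 95% interval 3.29 to 4.95, limma with Benjamini-Hochberg adjustment, adjusted p = 3.51e-09, higher in 2 of 2 samples). It rose in D164A/- cells with a log2 fold change of 3.22 (SE 0.41, interval 2.39 to 4.05, adjusted p = 4.93e-06, higher in 2 of 2). Both calls ended when only the samples compared were fitted. Ahr is in the study's supplementary list of Wnt3a-regulated genes whose expression it describes as affected in both D164A and Bcl9/Bcl9L mutants that disrupt this binding. That list was chosen in part on these samples and is not independent evidence.

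In the ΔC and dm lines the difference in Ahr was smaller. ΔC/fl cells had 56.4 and 37.5 CPM without and 123 and 91.0 CPM with Wnt3a, and dm/fl cells 42.8 and 69.3 CPM without and 163 and 126 CPM with it. ΔC/- cells had 99.5 and 61.4 CPM without and 122 and 55.0 CPM with Wnt3a, and dm/- cells 49.7 and 42.9 CPM without and 75.9 and 41.5 CPM with it. The treated samples were above the untreated ones in ΔC/fl and dm/fl cells and overlapped with them in ΔC/- and dm/- cells. The log2 fold change of Ahr was 1.18 in ΔC/fl cells (interval 0.35 to 2.01, limma with Benjamini-Hochberg adjustment, adjusted p = 0.633) and 1.38 in dm/fl cells (0.55 to 2.21, adjusted p = 0.139), and neither was called. It was 0.06 in ΔC/- cells (-0.77 to 0.90) and 0.28 in dm/- cells (-0.55 to 1.11). Without the libraries with the strongest GC trend, Ahr had 0.89 in ΔC/fl, 1.04 in dm/fl and 0.70 in dm/- cells. Leaving out untreated dm/fl replicate 2, which keeps the library with rho 0.80 as the only control, gave a called Ahr value of 1.72.

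Averaged over the 6 mutant lines, Ahr rose with a log2 fold change of 1.71 (SE 0.17, interval 1.37 to 2.05, limma with Benjamini-Hochberg adjustment, adjusted p = 1.20e-08), with mean levels of 202 CPM with and 48.0 CPM without Wnt3a. It was higher in both samples of 4 of these lines. Without the libraries with the strongest GC trend the mean was 1.67 and still called.

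Cyp1a1 was the 1 target that rose with Ahr in the mean of the mutant lines. D164A/fl cells had 13.5 and 22.9 CPM without and 68.2 and 102 CPM with Wnt3a, and D164A/- cells 6.85 and 22.5 CPM without and 37.0 and 103 CPM with it. ΔC/fl cells had 5.93 and 6.94 CPM without and 18.6 and 22.3 CPM with Wnt3a. The treated samples were above the untreated ones in 6 of the 7 lines and overlapped in ΔC/- cells. ΔC/- cells had 0.166 and 1.21 CPM without and 1.02 and 3.25 CPM with Wnt3a, and dm/fl cells 1.22 and 4.61 CPM without and 8.70 and 37.9 CPM with it. dm/- cells had 0 and 0.0395 CPM without and 0.186 and 0.395 CPM with Wnt3a, the lowest levels of the 7 lines.

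Averaged over the 6 mutant lines, Cyp1a1 rose with a log2 fold change of 1.60 (SE 0.25, interval 1.08 to 2.12, limma with Benjamini-Hochberg adjustment, adjusted p = 6.87e-05), from 7.15 to 33.5 CPM, and was higher in both samples of 5 of 6 lines. Without the libraries with the strongest GC trend this mean was 1.48 and still called. In single lines Cyp1a1 rose in D164A/fl cells, with a log2 fold change of 2.18 (SE 0.62, interval 0.91 to 3.45, adjusted p = 0.0305, higher in 2 of 2). That call ended with a pseudocount of 0.1, with edgeR, with only the samples compared, and without any 1 of the 4 D164A/fl libraries of the Wnt3a experiment, untreated or treated, replicate 1 or 2. Cyp1a1 was not called in D164A/- cells at 2.21 (0.94 to 3.48, adjusted p = 0.112), in dm/fl cells at 2.46 (1.19 to 3.73, adjusted p = 0.0553) or in ΔC/fl cells at 1.53 (0.26 to 2.80). The value was 0.87 in ΔC/- (-0.40 to 2.14) and 0.34 in dm/- cells (-0.93 to 1.60). In every condition of the Wnt3a experiment, replicate 2 had more Cyp1a1 than replicate 1. With a block for the replicate number, Cyp1a1 was called in D164A/-, dm/fl and ΔC/fl cells. The labels do not say what samples of the same number share. Without the libraries with the strongest GC trend, Cyp1a1 had 1.62 in ΔC/fl, 1.79 in dm/fl and 0.22 in dm/- cells. In dm/fl cells it was called at 3.46 without treated replicate 1 and at 3.13 without untreated replicate 2.

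**Figure D2:**
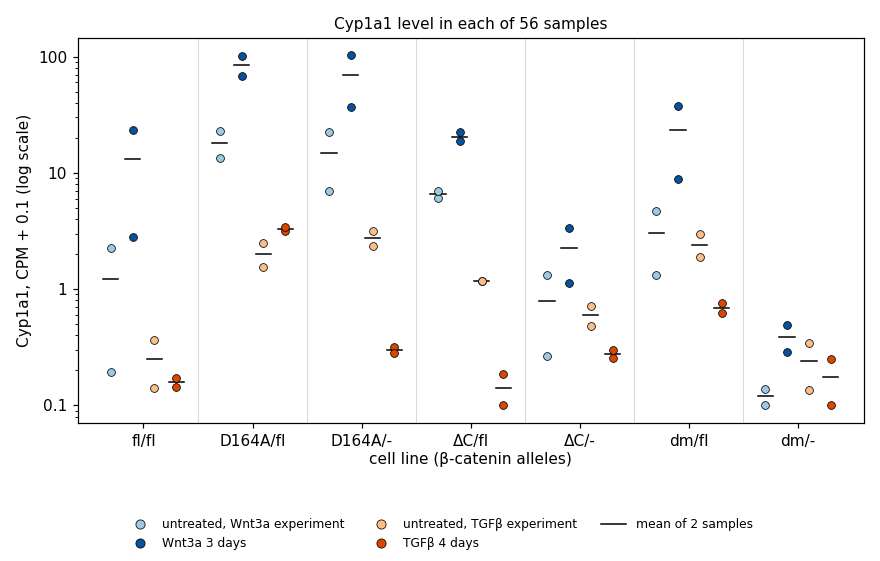
Cyp1a1 level (CPM + 0.1, log scale) in the 7 lines under the 4 treatments, with each sample as a point and the mean of 2 samples as a line. Treated samples lay above untreated ones in 6 of 7 lines for Wnt3a.

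The other 5 genes were not called with Wnt3a in any of the 6 mutant lines. With the GC trend removed, however, Tiparp was called in D164A/fl cells, at 1.61. Tiparp had a mean log2 fold change of 0.46 (interval -0.24 to 1.16), and its single lines ran from -1.48 in ΔC/- cells (-3.20 to 0.23) to 2.15 in dm/fl cells (0.44 to 3.87, adjusted p = 0.269 by limma with Benjamini-Hochberg adjustment). Cyp1b1 had a mean of 0.23 (-0.29 to 0.75), and its samples overlapped in 6 of 7 lines, while D164A/fl cells had 19.5 and 11.97 CPM without and 39.0 and 27.2 CPM with Wnt3a. Nqo1 had a mean of -0.02 (-0.46 to 0.43), Arnt 0.13 (-0.04 to 0.29) and Ahrr 0.17 (-0.02 to 0.36). Leaving out the libraries with the strongest GC trend, the means were 0.17 for Cyp1b1, -0.19 for Nqo1, 0.09 for Arnt and 0.23 for Ahrr. Ahrr differed most in ΔC/fl cells, at 0.648 and 1.42 CPM without and 1.67 and 3.23 CPM with Wnt3a.

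In dm/fl, dm/- and ΔC/fl cells, Tiparp was the gene whose Wnt3a values moved most without the libraries with the strongest GC trend. In fl/fl cells Cyp1a1 and Nqo1 moved more. Tiparp had 7.07 CPM in Wnt3a-treated fl/fl replicate 1 (rho 0.50) against 79.6 CPM in replicate 2. In untreated dm/fl cells it had 8.48 CPM in replicate 1 against 123 CPM in replicate 2, and in Wnt3a-treated dm/- cells 7.95 CPM in replicate 2 against 43.6 CPM in replicate 1. Without the libraries with the strongest GC trend, its log2 fold change was 0.30 in dm/fl, 0.73 in dm/- and -0.40 in ΔC/fl cells, and 0.22 in the mean. With untreated dm/fl replicate 2 left out instead, it was 4.01 and called. Why these libraries differ was not tested.

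**Figure D3:**
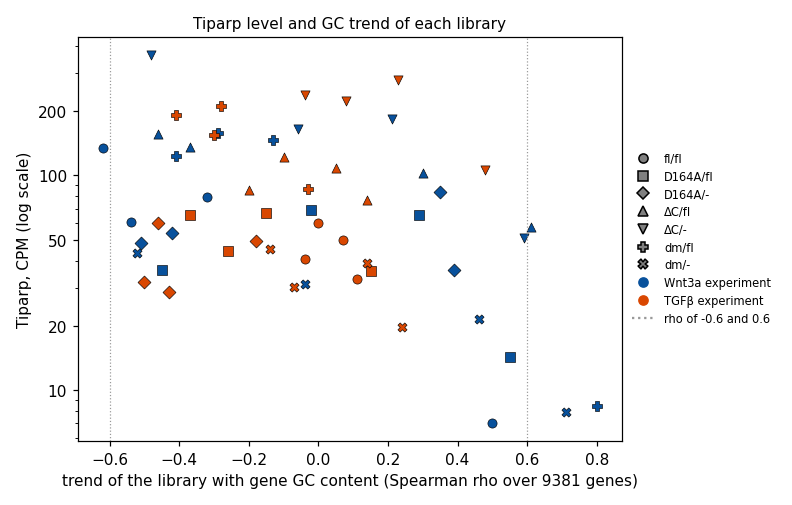
Tiparp level (CPM, log scale) against the trend of each of 56 libraries with gene GC content (Spearman rho), with lines as shapes and the 2 experiments as colors. The lowest level, 7.07 CPM, was in Wnt3a-treated fl/fl replicate 1, and the highest rho was 0.80.

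Counted over the 7 genes, limma with Benjamini-Hochberg adjustment at 2-fold called 2 with Wnt3a in D164A/fl cells, where 4.15% of all tested genes were called, and 1 in D164A/- cells, where 0.654% were. It called 0 of the 7 in ΔC/fl cells (0.225% of all genes), with 3 at an unadjusted p of at most 0.05 and 0 by edgeR. In ΔC/- cells it called 0 (0.0509% of all genes), with 0 at that unadjusted p and 0 by edgeR. In dm/fl cells it called 0 (0.574% of all genes), with 3 at that unadjusted p and 0 by edgeR. In dm/- cells it called 0, as it did among all tested genes (0%, with 29 at an unadjusted p of at most 0.05 and 0 by edgeR), with 0 of the 7 at that unadjusted p and 0 by edgeR. In the mean of the 6 lines it called 2 of 7, against 0.487% of all genes, or 3.16% at any size.

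**Figure D4:**
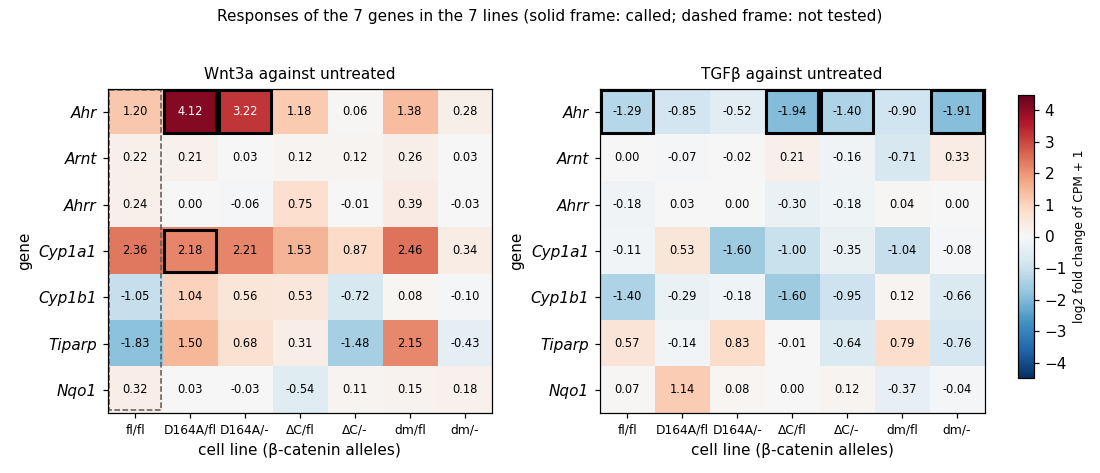
Log2 fold changes of the 7 genes with Wnt3a and with TGFβ against untreated cells in the 7 lines, with called values in solid frames and the untested fl/fl Wnt3a values in a dashed frame. The largest was 4.12 for Ahr with Wnt3a in D164A/fl cells.

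Known Wnt targets served as a check of the treatment. Axin2 rose in the mean of the mutant lines with a log2 fold change of 4.01 (SE 0.20, limma with Benjamini-Hochberg adjustment, adjusted p = 1.19e-15), from 1.19 to 71.5 CPM. It was called in D164A/fl at 5.98, D164A/- at 5.08, dm/fl at 5.15, ΔC/fl at 4.93 and ΔC/- cells at 2.84. Its single-line calls ended with only the samples compared, and the ΔC/- call also with the GC trend removed, with edgeR, with a pseudocount of 0.1 and without untreated replicate 1 or treated replicate 2. In dm/- cells Axin2 had 0 and 0 CPM without and 0 and 0.0791 CPM with Wnt3a. Ahr and Cyp1a1 were not called there, nor in ΔC/fl, ΔC/- or dm/fl cells, where Axin2 was. Of 8 tested Wnt controls, 2 rose in the mean, Axin2 and Notum, with 6 at an unadjusted p of at most 0.05 and 1 called by edgeR, which like a fit of only the samples compared did not call Notum. Among all 13754 genes these counts were 67, 1233 and 98.

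Other genes of the pathway were counted against all tested genes. With 67 of 13754 genes called in the mean Wnt3a response of the 6 lines (0.487%), and 1233 at an unadjusted p of at most 0.05, short lists would seldom hold a call. Limma with Benjamini-Hochberg adjustment called 0 of 10 genes of the receptor complex and its cofactors, with 0 at that unadjusted p and 0 by edgeR. Of 13 other receptor targets it called 0, with 3 at that p and 0 by edgeR, and their median log2 fold change was 0.03 against -0.02 over all genes. It called 0 of 10 NRF2 targets, 0 of 4 enzymes that make or break down ligands and 0 of 4 other partners of ARNT, with 0 at that p and 0 by edgeR in each. In D164A/fl cells, 8 of the 13 other receptor targets had an unadjusted p of at most 0.05, as did 1743 of the 13754 genes, and their median was 0.27 against -0.03 over all genes. The 1 call among them, and the 1 by edgeR, was Areg, which fell with a log2 fold change of -3.00 (SE 0.68, adjusted p = 0.00341), from 133 to 9.60 CPM. For Areg the call ended with only the samples compared and without untreated D164A/fl replicate 1 or treated replicate 2, and values ran from -4.53 to -1.47.

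The difference between the Wnt3a responses of each deleted line and the floxed line with the same mutant allele was tested as an interaction. Ahr had a difference of -0.90 for D164A (95% interval -2.07 to 0.28), -1.12 for ΔC (-2.29 to 0.06) and -1.10 for dm (-2.28 to 0.07). Cyp1a1 had 0.03 for D164A (-1.77 to 1.82), -0.66 for ΔC (-2.45 to 1.14) and -2.12 for dm (-3.92 to -0.33). Limma with Benjamini-Hochberg adjustment called 0 of the 7 genes for D164A (0.974% of all genes), 0 for ΔC (0.00727%) and 0 for dm (0.109%). At an unadjusted p of at most 0.05 there were 0, 1 and 2 of the 7, in this order, and edgeR called 0 in each. The 3 were Ahrr for ΔC at -0.76 (-1.42 to -0.10), and Cyp1a1 and Tiparp for dm, the latter at -2.58 (-5.00 to -0.15). Without the libraries with the strongest GC trend, Ahr had -0.83 for ΔC and -0.33 for dm, Cyp1a1 -0.75 for ΔC and -1.57 for dm, Tiparp 0.44 for dm and Ahrr -1.04 for ΔC. Axin2, by contrast, differed for dm at -5.09 (SE 0.70, adjusted p = 0.000133), a call that ended with edgeR, with a pseudocount of 0.1 and with only the samples compared.

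Ahr was lower with TGFβ in every line. The fl/fl cells had 44.8 and 39.3 CPM without and 20.4 and 13.5 CPM with TGFβ, and D164A/fl cells 26.8 and 31.3 CPM without and 14.6 and 16.7 CPM with it. D164A/- cells had 32.7 and 31.5 CPM without and 21.2 and 22.9 CPM with TGFβ, and ΔC/fl cells 115 and 56.2 CPM without and 17.4 and 23.5 CPM with it. In all 7 lines both treated samples were below both untreated ones. ΔC/- cells had 137 and 136 CPM without and 85.0 and 30.6 CPM with TGFβ. dm/fl cells had 129 and 100.4 CPM without and 59.1 and 62.2 CPM with TGFβ, and dm/- cells 64.7 and 56.4 CPM without and 19.2 and 12.2 CPM with it.

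Averaged over the 7 lines, Ahr fell with a log2 fold change of -1.26 (SE 0.15, interval -1.57 to -0.94, limma with Benjamini-Hochberg adjustment, adjusted p = 8.14e-08), from 71.5 to 29.9 CPM. It fell in ΔC/fl cells at -1.94 (interval -2.77 to -1.11, adjusted p = 0.00110) and in dm/- cells at -1.91 (-2.74 to -1.08, adjusted p = 0.00176), lower in 2 of 2 samples each. Lower in 2 of 2 samples as well, it fell in ΔC/- cells at -1.40 (-2.23 to -0.57, adjusted p = 0.0246) and in fl/fl cells at -1.29 (-2.12 to -0.46, adjusted p = 0.0470). It was not called in dm/fl cells at -0.90 (-1.73 to -0.06), D164A/fl cells at -0.85 (-1.68 to -0.02) or D164A/- cells at -0.52 (-1.36 to 0.31). All 4 single-line calls ended with only the samples compared, the ΔC/- and fl/fl calls with edgeR, and the fl/fl call with no filter, with median-of-ratios scaling and without any 1 of its 4 libraries. The ΔC/fl call ended without untreated replicate 1 and the dm/- call without treated replicate 2. In ΔC/- cells the call ended without untreated replicate 1, untreated replicate 2 or treated replicate 2, with -0.68 without treated replicate 2 and -2.12 without treated replicate 1.

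Among the targets, Cyp1b1 fell in the mean of the 7 lines at less than 2-fold, with a log2 fold change of -0.71 (SE 0.24, interval -1.19 to -0.23, limma with Benjamini-Hochberg adjustment, adjusted p = 0.0217), from 126 to 82.4 CPM, and was lower in both samples of 4 lines. Cyp1a1 had -0.52 (-1.001 to -0.04, adjusted p = 0.0990), with means of 1.25 CPM without and 0.617 CPM with TGFβ, and was called with edgeR at -1.89 and with a pseudocount of 0.1 at -1.34. Both treated samples of Cyp1a1 were below both untreated ones in 4 lines, above them in 1 and overlapped in 2. The 4 were D164A/- cells, with 3.09 and 2.25 CPM without and 0.220 and 0.183 CPM with TGFβ, ΔC/fl cells, with 1.08 and 1.08 CPM without and 0 and 0.0851 CPM with it, and ΔC/- and dm/fl cells. ΔC/- cells had 0.621 and 0.378 CPM without and 0.154 and 0.198 CPM with TGFβ, and dm/fl cells 2.86 and 1.78 CPM without and 0.530 and 0.657 CPM with it. The line with higher treated samples was D164A/fl, with 1.45 and 2.38 CPM without and 3.04 and 3.30 CPM with it. Tiparp had a mean of 0.09 (-0.56 to 0.74), Nqo1 0.14 (-0.27 to 0.55), Arnt -0.06 (-0.21 to 0.09) and Ahrr -0.08 (-0.26 to 0.09).

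In single lines limma with Benjamini-Hochberg adjustment called Ahr alone among the 7 genes at 2-fold. Arnt in dm/fl cells passed the adjusted p at less than 2-fold, at -0.71 (adjusted p = 0.0128). Other settings called more. With a pseudocount of 0.1 Cyp1a1 was called in D164A/- cells, at -3.18 against -1.60 here, and in ΔC/fl cells, at -3.12 against -0.997 here. Cyp1b1 was called in ΔC/fl cells with the GC trend removed, at -1.68, and Cyp1a1 in dm/fl cells with only the samples compared, at -1.04. In the main fit the call was 1 of 7 in fl/fl cells (6.25% of all genes), ΔC/fl (7.74%), ΔC/- (6.55%) and dm/- cells (6.12%). In D164A/fl cells it called 0 of the 7 (3.38% of all genes), with 2 at an unadjusted p of at most 0.05 and 0 by edgeR. In D164A/- cells it called 0 (4.06% of all genes), with 1 at that unadjusted p and 0 by edgeR, and in dm/fl cells 0 (10.3% of all genes), with 2 at that p and 0 by edgeR. The mean of the 7 lines had 1 of 7 at 2-fold (4.88% of all genes) and 2 at any size (28.8%).

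Of 13 other receptor targets, 2 fell with TGFβ as well. In the mean of the 7 lines Aldh3a1 fell with a log2 fold change of -2.35 (SE 0.34, limma with Benjamini-Hochberg adjustment, adjusted p = 1.93e-06), from 303 to 35.3 CPM, and Xdh with -1.37 (SE 0.18, adjusted p = 2.70e-07), from 222 to 107 CPM. Among all genes 4.88% were called. Of the 13, 8 had an unadjusted p of at most 0.05 and 5 were called by edgeR, against 5192 and 1289 of the 13754 genes, and the median of the list was -0.48 against -0.02 over all genes. The 6 epithelial markers had a similar median of -0.43 in this mean, with 0 called, 5 at that unadjusted p and 1 by edgeR. By line, the medians of the receptor targets ran from -0.91 in dm/fl to -0.16 in dm/- cells. Those of the epithelial markers ran from -1.21 in ΔC/fl to 0.64 in ΔC/- cells, and the difference between the lists was not tested. Epas1, whose product also pairs with ARNT, fell at -1.20 (SE 0.16, adjusted p = 4.29e-07), from 45.6 to 29.9 CPM, as 1 of 4 other partners. Limma called 0 of 10 genes of the receptor complex, with 4 at that unadjusted p and 1 by edgeR, and 0 of 10 NRF2 targets, with 6 at that p and 0 by edgeR. It called 0 of 4 enzymes that make or break down ligands, with 3 at that p and 0 by edgeR. The TGFβ controls Smad7 and Pmepa1 rose, at 1.32 and 1.20, and of 8 Wnt controls Notum fell at -2.20.

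The TGFβ response of Arnt differed between dm/- and dm/fl cells. In dm/fl cells Arnt had 113 and 91.5 CPM without and 69.7 and 55.2 CPM with TGFβ, and in dm/- cells 47.6 and 59.9 CPM without and 69.5 and 64.8 CPM with it. The treated samples were thus below the untreated ones in the floxed line and above them in the deleted line. The log2 fold change was -0.71 in dm/fl (SE 0.20, interval -1.11 to -0.30) and 0.33 in dm/- cells (-0.08 to 0.73), a difference of 1.03 (SE 0.28, interval 0.46 to 1.60, limma with Benjamini-Hochberg adjustment, adjusted p = 0.0163). The call ended with edgeR and without untreated dm/fl replicate 1, untreated dm/- replicate 1, treated dm/- replicate 1 or treated dm/fl replicate 2. This was 1 of 7 genes for dm, where 7.31% of all genes were called. Limma called 0 of 7 for D164A (1.35% of all genes), with 1 at an unadjusted p of at most 0.05, Cyp1a1 at -2.14 (-3.93 to -0.34), which was called with only the samples compared, and 0 by edgeR. It called 0 for ΔC (3.13%), with 0 at that p and 0 by edgeR. For Ahr the difference was 0.33 for D164A (-0.85 to 1.501), 0.54 for ΔC (-0.63 to 1.72) and -1.01 for dm (-2.19 to 0.16).

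Lines with the floxed allele removed were compared with floxed lines of the same mutant allele in untreated cells of both experiments. There were 4 samples on each side. The labels do not say that a deleted line came from the floxed line it is compared with. Cyp1b1 had 19.5, 11.97, 7.25 and 8.11 CPM in D164A/fl cells and 226, 69.5, 311 and 173 CPM in D164A/- cells. Nqo1 had 33.6, 58.5, 6.54 and 8.62 CPM in D164A/fl and 48.7, 45.1, 63.9 and 58.2 CPM in D164A/- cells. All D164A/- samples were above all D164A/fl samples for Cyp1b1, and they overlapped for Nqo1. Cyp1b1 rose with a log2 fold change of 3.85 (SE 0.44, interval 2.96 to 4.75, limma with Benjamini-Hochberg adjustment, adjusted p = 3.51e-08, higher in 4 of 4) and Nqo1 with 1.47 (SE 0.38, interval 0.70 to 2.24, adjusted p = 0.00424). For Nqo1 the difference lay in the TGFβ experiment, with means of 7.58 against 61.1 CPM, while those of the Wnt3a experiment were 46.0 and 46.9 CPM. These were 2 of 7, against 9.45% of all genes. Ahr had -0.01 (-0.60 to 0.57) and Cyp1a1 -0.06 (-0.95 to 0.84).

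In the ΔC lines Cyp1b1 went the other way. It had 6.03, 4.83, 42.0 and 19.4 CPM in untreated ΔC/fl and 2.36, 0.971, 1.82 and 2.27 CPM in ΔC/- cells. Cyp1a1 had 5.93, 6.94, 1.08 and 1.08 CPM in ΔC/fl and 0.166, 1.21, 0.621 and 0.378 CPM in ΔC/- cells. All ΔC/- samples were below all ΔC/fl samples for Cyp1b1, and 1 of them overlapped for Cyp1a1. Cyp1b1 fell with a log2 fold change of -2.30 (SE 0.44, interval -3.20 to -1.40, limma with Benjamini-Hochberg adjustment, adjusted p = 0.000133) and Cyp1a1 with -1.34 (SE 0.44, interval -2.24 to -0.44, adjusted p = 0.0226). For Cyp1a1 the value was -2.24 at its most negative, among a pseudocount of 0.1 and edgeR. Its call ended without untreated ΔC/fl replicate 2 or ΔC/- replicate 1 of the Wnt3a experiment, and without untreated ΔC/fl replicate 1 or 2 or ΔC/- replicate 2 of the TGFβ experiment. These were 2 of 7, against 12.2% of all genes. Ahr had 0.75 (0.17 to 1.34, adjusted p = 0.0531), Tiparp 1.39 (0.18 to 2.61, adjusted p = 0.0868) and Nqo1 -0.82 (-1.59 to -0.05, adjusted p = 0.114). Tiparp was called with the GC trend removed, at 1.31, and Nqo1 with a pseudocount of 0.1, at -1.72, and with edgeR, at -2.003. With all 4 libraries with the strongest GC trend left out, which include untreated ΔC/fl replicate 2, Cyp1b1 was -2.37 and Cyp1a1 -1.29, both called in that fit, while Ahr was 0.61, Tiparp 1.04 and Nqo1 -0.73.

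In the dm lines Nqo1 was nearly lost. It had 34.8, 158, 62.4 and 56.4 CPM in untreated dm/fl and 0.0751, 0.119, 0.0306 and 0.0707 CPM in dm/- cells, near or below 3 reads. Cyp1a1 had 1.22, 4.61, 2.86 and 1.78 CPM in dm/fl and 0, 0.0395, 0.244 and 0.0354 CPM in dm/- cells. For both genes all dm/- samples were below all dm/fl samples. Nqo1 fell with a log2 fold change of -5.97 (SE 0.38, interval -6.74 to -5.21, limma with Benjamini-Hochberg adjustment, adjusted p = 1.49e-14) and Cyp1a1 with -1.66 (SE 0.44, interval -2.56 to -0.76, adjusted p = 0.00333), lower in 4 of 4 each. By edgeR or with a pseudocount of 0.1 the falls were larger, to -10 for Nqo1 and to -5.47 for Cyp1a1. These were 2 of 7 at 2-fold, against 18.3% of all genes. Arnt fell at less than 2-fold, with -0.52 (-0.81 to -0.24, adjusted p = 0.00374), from 88.8 to 60.7 CPM. Ahr had -0.57 (-1.15 to 0.02), Cyp1b1 -0.41 (-1.31 to 0.49) and Tiparp -0.89 (-2.11 to 0.32). With all 4 libraries with the strongest GC trend left out, which include untreated dm/fl replicate 1, Nqo1 was -6.51 and Cyp1a1 -1.995, both called, Ahr was -0.74, Arnt -0.67, Cyp1b1 -0.65, and Tiparp was -1.82 and called. Tiparp was also called with the GC trend removed, at -1.08.

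**Figure D5:**
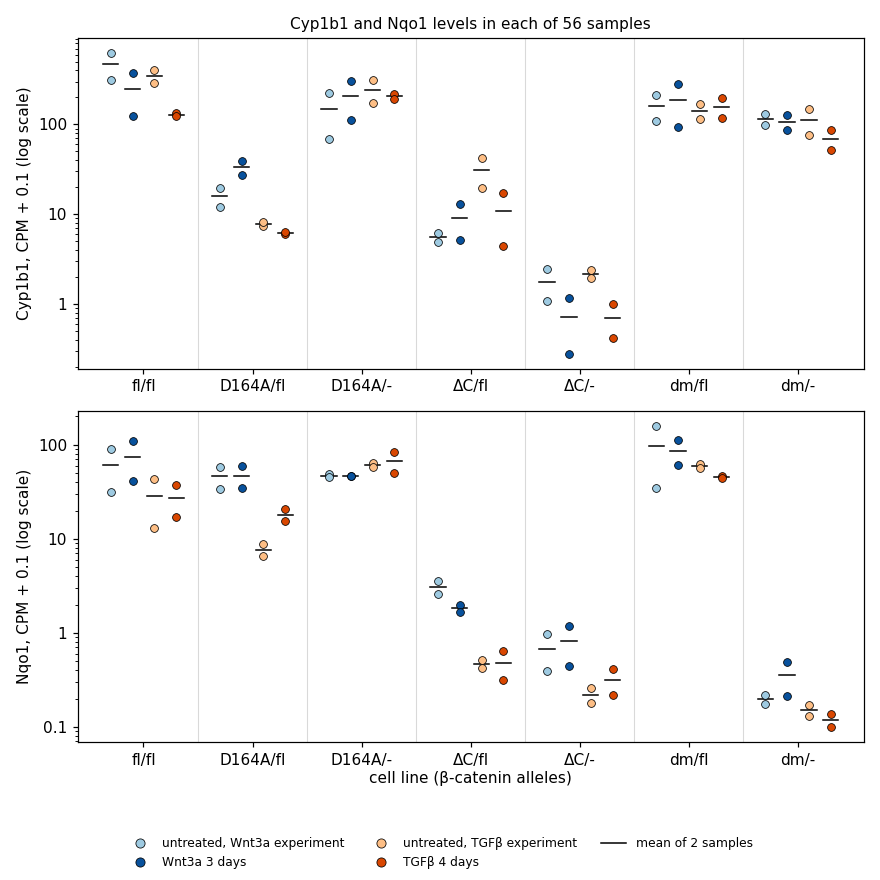
Cyp1b1 (upper panel) and Nqo1 (lower panel) levels (CPM + 0.1, log scale) in the 7 lines under the 4 treatments, with each sample as a point and the mean of 2 samples as a line. Mean untreated Nqo1 was 77.8 CPM in dm/fl and 0.0738 CPM in dm/- cells.

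Marker genes of cell types differed between the same lines, although fibroblasts had been removed by differential trypsinization when the lines were made. Fibroblast markers (6 genes, Pdgfrb the most abundant on average with a median of 0.859 CPM, Thy1 at no more than 3 reads everywhere) summed to 74.0 to 745 CPM in ΔC/fl against 6.46 to 26.3 CPM in ΔC/- samples, to 45.6 to 537 CPM in dm/fl against 6.39 to 126 CPM in dm/- samples, and to 5.58 to 32.7 CPM in fl/fl samples. In D164A/fl samples they summed to 54.3 to 78.4 CPM and in D164A/- samples to 50.8 to 146 CPM. Immune markers (5 genes, Csf1r the most abundant, Cd3e at no more than 3 reads everywhere) summed to 292 to 533 CPM in dm/fl, 52.9 to 217 CPM in fl/fl, 30.6 to 88.0 CPM in dm/- and at most 80.6 CPM in all other samples. Csf1r made up 530 of the highest 533 CPM. The 2 tested immune markers went opposite ways in untreated dm/- against dm/fl cells, where Csf1r fell with a log2 fold change of -3.73 and Cd68 rose with 3.16. Endothelial markers (3 genes, Cdh5 the most abundant) had a median sum of 0.330 CPM and reached 35.1 CPM in TGFβ-treated dm/fl cells. Adipocyte markers (3 genes, Fabp4 the most abundant, Adipoq and Plin1 at no more than 3 reads everywhere) had a median sum of 0.368 CPM and the highest, 23.6 CPM, in untreated dm/fl cells of the TGFβ experiment. Epithelial markers (6 genes, Krt18 the most abundant) summed to 1185 to 8284 CPM over all samples. Some sums also moved with treatment. With Wnt3a, immune markers went from 3.34 and 5.66 to 13.8 and 20.8 CPM in D164A/fl cells, where Ahr rose most. Of the 2 tested immune markers, Csf1r was called there at 2.80 and Cd68 was not called. In D164A/- cells, where Ahr also rose, these sums overlapped, at 2.04 and 4.98 CPM without and 2.48 and 6.896 CPM with Wnt3a. In fl/fl cells immune markers went from 58.4 and 52.9 to 142 and 103 CPM. With TGFβ, fibroblast markers went from 537 and 315 to 130.1 and 102 CPM in dm/fl cells, where Pdgfra and Pdgfrb fell and Col1a1 rose. They went from 7.06 and 8.06 to 37.5 and 126 CPM in dm/- cells and from 10.7 and 5.58 to 30.3 and 32.7 CPM in fl/fl cells. In ΔC/- cells fibroblast markers went from 9.98 and 9.44 to 26.3 and 25.8 CPM, and epithelial markers from 2173 and 2557 to 4511 and 7959 CPM. Epithelial markers went the other way in ΔC/fl cells, where Ahr fell most, from 1832 and 2686 to 1185 and 1539 CPM, with 3 of 6 called as lower. Immune markers went from 59.3 and 75.4 to 166 and 217 CPM with TGFβ in fl/fl cells and from 80.6 and 60.6 to 17.1 and 27.3 CPM in ΔC/- cells. Their part in the levels of Cyp1b1, Nqo1, Cyp1a1 and Ahr was not tested.

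Each mutant line was also compared with fl/fl in untreated cells of the TGFβ experiment. These 6 comparisons share the same 2 fl/fl samples, so they are not independent. In these samples Ahr had 44.8 and 39.3 CPM, Cyp1b1 289 and 401 CPM, Nqo1 13.0 and 43.3 CPM, Tiparp 32.9 and 40.7 CPM and Cyp1a1 0.0403 and 0.262 CPM. Ahr was above this in ΔC/- cells, at 137 and 136 CPM, and rose with a log2 fold change of 1.68 (SE 0.41, interval 0.85 to 2.51, limma with Benjamini-Hochberg adjustment, adjusted p = 0.00182, higher in 2 of 2). In dm/fl cells, at 129 and 100.4 CPM, it rose with 1.41 (SE 0.41, interval 0.58 to 2.25, adjusted p = 0.0102, higher in 2 of 2), a call that ended without dm/fl replicate 1 or fl/fl replicate 2. In untreated cells of the Wnt3a experiment Ahr overlapped with fl/fl, at 38.8 and 61.5 CPM, in both lines, with 99.5 and 61.4 CPM in ΔC/- and 42.8 and 69.3 CPM in dm/fl cells. Tiparp rose in ΔC/- cells, at 277 and 222 CPM, with 2.73 (SE 0.84, interval 1.01 to 4.44, adjusted p = 0.0130, higher in 2 of 2), a call that ended without fl/fl replicate 1, fl/fl replicate 2 or ΔC/- replicate 1. Cyp1a1 rose in D164A/- cells, at 3.09 and 2.25 CPM, with 1.67 (SE 0.62, interval 0.40 to 2.94, adjusted p = 0.0485, higher in 2 of 2), a call that ended with no filter and without any 1 of the 4 libraries. With a pseudocount of 0.1 or edgeR that value was larger, up to 4.16. Cyp1a1 was not called in D164A/fl cells at 1.33 or dm/fl cells at 1.52, but it was with edgeR, at 3.67 and 3.88, with a pseudocount of 0.1, at 3.12 and 3.39, and with only the samples compared, and in dm/fl cells also with the GC trend removed, at 1.62.

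Cyp1b1 was far below fl/fl in 3 of the lines. It had 7.25 and 8.11 CPM in D164A/fl, 42.0 and 19.4 CPM in ΔC/fl and 1.82 and 2.27 CPM in ΔC/- cells, all below both fl/fl samples. It fell with log2 fold changes of -5.30 (SE 0.62, limma with Benjamini-Hochberg adjustment, adjusted p = 4.73e-08), -3.53 (adjusted p = 4.86e-05) and -6.81 (adjusted p = 2.31e-10), in this order. Nqo1 was below fl/fl in 4 lines, with 6.54 and 8.62 CPM in D164A/fl, 0.320 and 0.413 CPM in ΔC/fl, 0.0776 and 0.157 CPM in ΔC/- and 0.0306 and 0.0707 CPM in dm/- cells. It fell with -4.19 in ΔC/fl (SE 0.53, adjusted p = 1.99e-07), -4.48 in ΔC/- (adjusted p = 5.56e-08) and -4.57 in dm/- cells (adjusted p = 4.09e-08), lower in 2 of 2 each. In D164A/fl cells Nqo1 fell with -1.55 (adjusted p = 0.0367, lower in 2 of 2). That call ended with a pseudocount of 0.1, with no filter, with only the samples compared, and without D164A/fl replicate 1 or 2 or fl/fl replicate 2. In the Wnt3a experiment the untreated samples overlapped, with 33.6 and 58.5 CPM in D164A/fl and 31.4 and 90.7 CPM in fl/fl cells. Without fl/fl replicate 1 it was -2.38 and without fl/fl replicate 2 it was -0.72. By edgeR or with a pseudocount of 0.1 the falls of Nqo1 reached -7.85 in ΔC/- and -9.02 in dm/- cells.

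Of the 7 genes, 2 were called against fl/fl in D164A/fl cells (14.7% of all genes), 1 in D164A/- (19.4%), 2 in ΔC/fl (16%), 4 in ΔC/- (22%), 1 in dm/fl (16%) and 1 in dm/- cells (14%). By edgeR the counts were 3, 1, 2, 4, 2 and 1, in this order. Arnt in D164A/- cells passed the adjusted p at less than 2-fold, at 0.56 (adjusted p = 0.0353). Ahr was not called in D164A/fl, D164A/-, ΔC/fl or dm/- cells, although with the GC trend removed it was called in ΔC/fl cells, at 1.01. The same setting also called Tiparp in ΔC/fl cells at 1.40 and in dm/fl cells at 1.55, Nqo1 in dm/fl cells at 1.31 and Cyp1b1 in dm/- cells at -1.56. With only the samples compared, Tiparp was called in dm/fl cells at 1.63 and Cyp1b1 there at -1.28.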

How the data were processed

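The deposited values are an expression signal for which the authors scaled the reads of each gene to an effective library. Per the labels and the paper, libraries were stranded poly(A), sequenced single-end, mapped to mm10 with STAR and counted on RefSeq mRNAs with QuasR. In every sample 100% of values were whole multiples of 1 read within a tolerance of 0.001, so whole reads were recovered and used with edgeR. Reads per sample were 22.4 to 33.7 M.

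The values were transformed to log2(CPM + 1) and fitted with limma 3.58.1 in R 4.3.3 over 28 conditions and 56 samples, with eBayes and a trend of the variance. The fit used 13754 genes that reached 1 CPM in 2 or more samples, and p-values were adjusted over all of them with the Benjamini-Hochberg method. A call needed an adjusted p no higher than 0.05 together with a log2 fold change of 1 or more in size, and the mean responses were also counted at any size. The limma steps were tested on simulated data for the Wnt3a response of D164A/- cells. Its spread was set in advance and its replicates did not differ in GC trend. It therefore does not show how reliable the calls in these samples are.

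Alternatives were a pseudocount of 0.1, no filter, median-of-ratios scaling, edgeR 4.0.16, a fit of only the samples compared, a block for the replicate number, a loess of GC content removed (span 0.3), this loess with the block, and an unadjusted p of at most 0.05 at 1.5-fold. Each library was also left out in turn. Genes outside the 7 are named where they were called in lists of the receptor complex, other receptor targets, NRF2 targets, ligand enzymes, ARNT partners, Wnt and TGFβ controls and cell type markers, and not all of these are named or reported here. The 7 genes and the lists were chosen with earlier results of these data known. Promoters of 6 of the 7 genes matched by symbol in RefSeq on GRCm38.p6. Python 3.11.15, pandas 2.3.3, numpy 2.4.6 and matplotlib 3.10.9 were used.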

Additional observations from a re-analysis of the deposited data

Results flagged for a closer look

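The TGFβ response of Arnt differed by 1.03 on the log2 scale between dm/- and dm/fl cells, and it was listed because it is a difference between groups in how they responded.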

How the results depend on the processing

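Of 28 calls among the 7 genes, 0 reversed in direction, and 15 were kept in all 9 alternatives and in every leave-one-out fit that touched them. Kept calls were 28 with the GC trend removed, 27 with median-of-ratios scaling, 26 with a pseudocount of 0.1, 25 with no filter, 24 with edgeR and 20 with only the samples compared. Leaving out the 4 libraries with the strongest GC trend, an alternative added after the data had been seen, kept 6 of 6 calls that include them. Where a left-out library leaves 1 sample in a group, that sample is taken to vary like the other groups. With 2 samples a condition and 3 reads at up to 0.146 CPM, changes in Ahrr, and in Nqo1 and Cyp1a1 of dm/- cells, are poorly measured. Unless stated, the cause of a difference was not tested.

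Wnt3a responses of single lines held 3 calls, with 10 at an unadjusted p of at most 0.05 and 1.5-fold, 0 with only the samples compared, where fewer samples set the variance, and 2 to 6 over left-out libraries, the 6 without untreated dm/fl replicate 2. TGFβ responses of single lines held 4 calls, with 11 at the unadjusted threshold, 6 with a pseudocount of 0.1, which added Cyp1a1 in D164A/- and ΔC/fl cells, 2 with edgeR, 1 with only the samples compared, which was Cyp1a1 in dm/fl cells and not among the 4, and 3 to 5 over left-out libraries. The mean TGFβ response held 1 call, with 2 at the unadjusted threshold, 2 with a pseudocount of 0.1 and 2 with edgeR. Comparisons with fl/fl held 11 calls, with 18 at the unadjusted threshold, 17 with the GC trend removed and 9 to 12 over left-out libraries. Differences of the Wnt3a response held 0 calls, with 3 at the unadjusted threshold and 0 to 2 over left-out libraries, the 2 without untreated dm/fl replicate 2. Differences of the TGFβ response held 1 call, with 2 at the unadjusted threshold, 0 with edgeR and 2 with only the samples compared. Over left-out libraries that last count was 0 to 1, and it was 0 without untreated dm/fl replicate 1, untreated dm/- replicate 1, treated dm/- replicate 1 or treated dm/fl replicate 2. The mean Wnt3a response kept 2 calls throughout, and deleted against floxed lines held 6 calls, with 9 at the unadjusted threshold, 8 with the GC trend removed, 7 with edgeR, 7 with a pseudocount of 0.1 and 5 to 7 over left-out libraries.

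The labels do not say what samples with the same replicate number share. Apart from the single-line calls of Cyp1a1 with Wnt3a, the replicate block is therefore given here alone. With the replicate block, calls were 8 for the Wnt3a responses, 9 for the TGFβ responses, 15 for the comparisons with fl/fl, 1 for the differences of the Wnt3a response and 2 for those of the TGFβ response. With the GC trend removed and the replicate block they were 9, 11, 1 and 2, in the same order, and 19 for the comparisons with fl/fl. All 28 calls were kept with the replicate block. Among the Wnt3a results it added Cyp1a1 in D164A/-, ΔC/fl and dm/fl cells, Ahr in dm/fl cells, Cyp1b1 in D164A/fl cells and the dm difference of Cyp1a1. Among the TGFβ results it added Cyp1a1 in D164A/- and dm/fl cells, Cyp1b1 in fl/fl and ΔC/fl cells, Nqo1 in D164A/fl cells and the D164A difference of Cyp1a1. Against fl/fl it added Cyp1a1 in D164A/fl and dm/fl cells and Nqo1 in D164A/- and dm/fl cells. The difference between replicate 1 and replicate 2 in treated cells was correlated with that in untreated cells of the same line, over 9513 genes. In the Wnt3a experiment this r was -0.099 in dm/fl cells and 0.544 to 0.943 in the other 6 lines. For the TGFβ experiment it was -0.246 in ΔC/- cells and 0.324 to 0.708 in the other 6 lines.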

Other observations

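Outside the 7 genes, other receptor targets also differed between the untreated deleted and floxed lines, in limma with Benjamini-Hochberg adjustment. Aldh3a1 fell in dm/- against dm/fl cells with a log2 fold change of -5.24, from 634 to 18.4 CPM. Areg fell in D164A/- against D164A/fl cells with -2.47 and rose in dm/- against dm/fl cells with 1.97. Of 13 such targets, 2 rose and 3 fell for D164A, where 9.45% of all genes were called, 1 rose and 2 fell for ΔC, where 12.2% were, and 1 rose and 5 fell for dm, where 18.3% were. Among partners of ARNT, Epas1 rose with 1.88 for D164A and fell with -2.49 for dm, and 1 of 4 fell for ΔC. Of 10 genes of the receptor complex, 1 rose and 1 fell for ΔC, and 1 rose and 1 fell for dm. The fall for ΔC was that of Arnt2, with -3.58 in ΔC/- against ΔC/fl cells, and with -5.41 by edgeR. Of the NRF2 targets, Slc7a11 fell with -2.09 for D164A, a call that ended without untreated D164A/fl replicate 1 of the Wnt3a experiment. Of the enzymes that make or break down ligands, Kyat3 rose with 1.35 for D164A. For ΔC, 1 of 10 NRF2 targets and 1 of 4 of these enzymes fell, and for dm 1 NRF2 target rose and 1 fell. The D164A calls of Areg and Slc7a11 ended with only the samples compared.

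The TGFβ response differed between dm/- and dm/fl cells for Areg, by -5.42, and for Epas1, by 2.74. Areg rose with 2.09 in dm/fl and fell with -3.33 in dm/- cells, and the dm/fl call ended without any 1 of its 4 libraries.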
